A study of Mus musculus with 12 samples.

Results

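B cells and plasma cells leave a transcript signature, part of which a sort for CD4 T cells should not contain. Of that signature, 32 genes were followed here through sorted regulatory T cells (Treg) of mouse tumours and spleens. They were taken as a fixed list of gene names, chosen with earlier results of these data known, from the 20811 genes named on the array. Each gene was read from its brightest probe that is no control, and kept if the scanner software marked that probe well above background on at least 3 of 12 arrays. All 32 were found by name or older alias (Jchain as Igj, Mzb1 as 2010001M09Rik) and all 32 passed. Of these, 20 are known mainly from the B lineage and 12 are also known from other leukocytes such as macrophages, dendritic cells or T cells.

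The 12 arrays fell into 4 groups of 3. IL10+ tumour Treg and IL10- tumour Treg came from VERT-X mice (C57BL/6, with EGFP reporting interleukin-10), where Treg were taken as CD25+ and CD120b+/low cells. Total tumour Treg and spleen Treg came from FoxP3-EGFP mice (C57BL/6), where EGFP itself defined the Treg. Before that gate, every sample was sorted as CD45+, CD11b-low, CD3+ and CD4+. The tumours were MC38, a mouse colon carcinoma line grown under the skin of mice of the same strain for 2 weeks and pooled before digestion, whereas the spleens were from mice without tumours. Each population came from 3 experiments per the labels, so the spread between arrays includes the experiment, and a difference between tumour and spleen Treg also holds the difference between digested tumour and spleen.

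A B cell recognises antigen through a membrane immunoglobulin that signals through the paired chains Cd79a and Cd79b, and coreceptors such as Cd22 and Cr2 lower or raise that signal. Kinases (Lyn, Syk, Btk) and adaptors (Blnk) carry it to phospholipase Plcg2, while Pax5 and Ebf1 hold the B cell programme in place. Cytokines of the TNF family keep B cells and plasma cells alive through Tnfrsf13c, Tnfrsf13b and Tnfrsf17. The spleen is rich in B cells in its follicles and marginal zones, and its red pulp holds plasma cells, which secrete antibody with the help of Jchain, Mzb1 and Xbp1. T cells are not known to transcribe the B cell receptor chains, and RNA of the sorted cells and of cells outside the gate cannot be told apart in these samples. In bulk RNA of this kind, fewer cells of a type and less RNA per cell cannot be told apart either.

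The promoters of the members were searched for sites of factors that stand among the members or pair with them. RefSeq promoters (assembly GRCm38.p6) were at hand for 26 of the 32 members. In the 250 bases before each start, on both strands, the octamer ATGCAAAT, which POU factors bind together with the coactivator Pou2af1, was found in Blnk and Vpreb3 and in 1.60% of 32851 mouse promoters. The palindromic consensus of early B cell factor (Ebf1) was found in Cd22 and in 0.779% of promoters. The ETS core GAGGAAGT, of the kind bound by the Spib family, was found in Cd37, Cd72 and Fcrl1 and in 2.44% of promoters. The motifs were chosen with earlier results of these data known, they do not overlap in letters within these windows, and a match is a description of the letters only.

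The 150 bases before the start are shown for the members with a match, 5′ to 3′ along the gene, with the matched letters in capitals, which read as the motif or its reverse complement. They lie at chr10:75948150-75948299 on the plus strand (Vpreb3), chr19:40994222-40994371 on the minus strand (Blnk), chr7:30879029-30879178 on the minus strand (Cd22), chr3:87376237-87376386 on the plus strand (Fcrl1), chr7:45238840-45238989 on the minus strand (Cd37) and chr4:43454627-43454776 on the minus strand (Cd72). Vpreb3, Blnk, Cd22 and Fcrl1 are members that were lower in total tumour than in spleen Treg, whereas Cd37 and Cd72 are members with no call in that comparison, so the ETS letters stand before members of both kinds.
Vpreb3: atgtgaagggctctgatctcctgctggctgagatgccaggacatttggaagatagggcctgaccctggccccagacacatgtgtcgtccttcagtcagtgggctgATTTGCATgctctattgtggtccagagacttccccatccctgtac
Blnk: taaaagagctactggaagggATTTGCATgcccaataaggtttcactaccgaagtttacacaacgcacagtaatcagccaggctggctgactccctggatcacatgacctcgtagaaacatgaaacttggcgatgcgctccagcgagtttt
Cd22: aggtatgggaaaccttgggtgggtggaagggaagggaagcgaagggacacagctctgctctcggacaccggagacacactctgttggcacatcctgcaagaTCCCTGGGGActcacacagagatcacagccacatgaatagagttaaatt
Fcrl1: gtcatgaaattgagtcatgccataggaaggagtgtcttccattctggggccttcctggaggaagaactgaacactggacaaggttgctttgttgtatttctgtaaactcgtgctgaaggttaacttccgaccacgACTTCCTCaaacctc
Cd37: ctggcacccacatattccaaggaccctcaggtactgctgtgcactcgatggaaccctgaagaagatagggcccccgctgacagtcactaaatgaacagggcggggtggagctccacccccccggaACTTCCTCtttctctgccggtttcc
Cd72: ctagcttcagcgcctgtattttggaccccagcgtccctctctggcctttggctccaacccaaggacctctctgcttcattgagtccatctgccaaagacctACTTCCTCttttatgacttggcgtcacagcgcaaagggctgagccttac

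A level is the log2 processed signal after subtraction of the array's own 75th percentile, so that 0 is the brightness of a probe at that percentile, and levels are compared between arrays for 1 probe, never between probes. The share of the 41174 probes above background was lowest on IL10+ replicate 3 (42.2%) and highest on IL10- replicate 1 (65.5%). The 75th percentile ran from a processed signal of 92.8 on IL10+ replicate 3 to 608 on IL10+ replicate 1. Pearson correlations across features within a group were 0.924 to 0.955 in IL10+, 0.954 to 0.977 in IL10-, 0.987 to 0.988 in total tumour and 0.964 to 0.982 in spleen Treg. The Foxp3 probe was not well above background on any array of FoxP3-EGFP mice and was so on all 6 arrays of VERT-X mice, so it does not check the Treg identity of the FoxP3-EGFP samples.

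More members were detected on spleen than on tumour arrays, which was in part set by the filter. Of the 32 members, 13 could not have passed it without the spleen arrays, and for the 13 detected on all 12 arrays detection does not differ between tissues. Over all probes, the share above background on each spleen array lay between the lowest and the highest tumour array. All 32 members were well above background on each of the 3 spleen arrays, against 14 to 19 members on IL10+ arrays, 16 to 25 on IL10- arrays and 15 or 16 on total tumour arrays. The 25 members were on IL10- replicate 1, the array with the most probes above background. Of the 20 B lineage members, 4 to 7 were detected on IL10+ arrays, 6 to 13 on IL10- arrays and 5 or 6 on total tumour arrays. Cd79a, Cr2, Fcer2a, Pax5, Tnfrsf17 and Jchain were detected on spleen arrays alone, 13 further members on some tumour arrays, and 13 on all 12 arrays. The members seen on spleen arrays alone passed the filter only there and so had to be lower in tumour Treg, and the 4 members seen on 4 arrays and the 3 seen on 5 arrays passed through the spleen arrays as well. The 13 members seen everywhere owe their place to no group, and they are Cd79b, Cd72, Blnk, Btk, Lyn, Syk, Plcg2, Tnfrsf13c, Tnfrsf13b, Xbp1, Cd24a, Ly86 and Cd37.

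**Figure D1:**
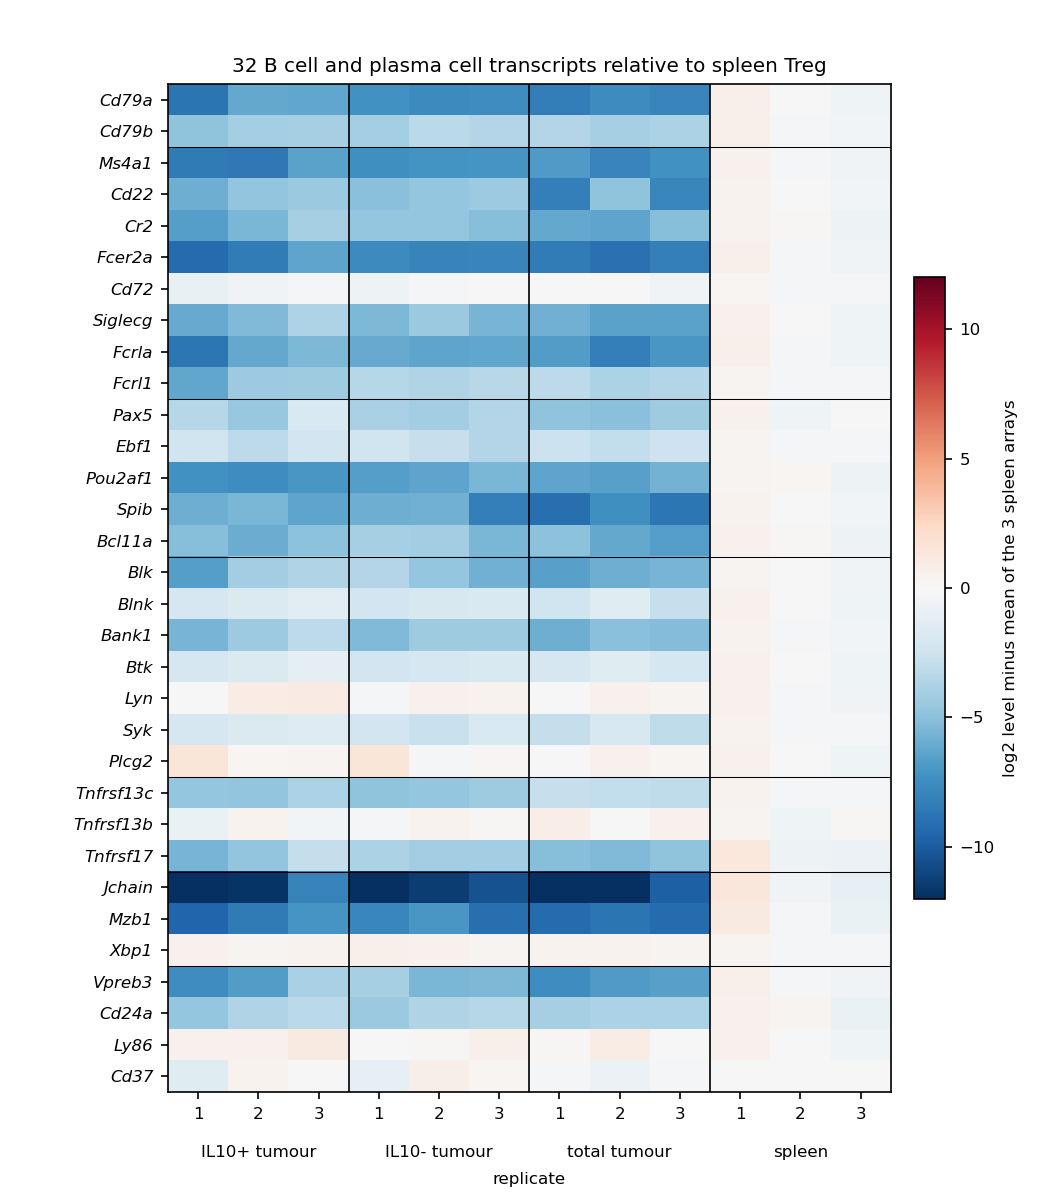
Heat map of the 32 members (rows, by role) on the 12 arrays (columns, replicates 1 to 3 of each group), coloured by log2 level minus the mean of the 3 spleen arrays on a scale that ends at 12 in either direction. The rows of the B lineage members are blue on all 9 tumour arrays, down to -11.40 for the mean of Jchain in total tumour Treg, where it was not well above background, while Cd72, Lyn, Plcg2, Tnfrsf13b, Xbp1, Ly86 and Cd37 stay near white.

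The B lineage members detected on every array, Cd79b, Blnk and Tnfrsf13c, were lower in each tumour population than in spleen Treg. In total tumour against spleen Treg, 25 members were lower, 0 were higher and 7 were not called (limma over all 15557 features, adjusted p under 0.05). Over all features, 20.2% were called lower and 21.9% higher in that comparison. Among the 13 members detected on all 12 arrays, 6 were lower and 7 were not called. These counts describe the members and support no more, because 13 of the 32 reached the filter through the spleen arrays, where they are high. With the same limit, the median difference over the 32 members was -4.88, or -4.87 with undetected members at their bound, against -0.02 over all features. A bound takes the probe's own signal where that is higher, so these medians had to be near alike and are no check. An unadjusted p under 0.05 was found for 26 members, the 25 lower ones and Xbp1, and for 50.1% of all features. IL10+ tumour Treg had 25 members lower and 0 higher than spleen Treg, where 26.9% of features were lower and 23.8% higher, and 27 members and 57.0% of features had an unadjusted p under 0.05. IL10- tumour Treg had 25 lower and 1 higher, where 24.7% of features were lower and 24.1% higher, and 26 members and 55.5% of features had an unadjusted p under 0.05. The 25 lower members were the same genes in the 3 comparisons, which share the spleen arrays and are thus no independent repeats of each other. Without a test, every total tumour array lay below every spleen array for 26 members and above for 1, against 33.4% and 32.3% of all features. These counts were 25 and 1 in IL10+ (31.0% and 26.8% of features) and 25 and 0 in IL10- tumour Treg (31.5% and 29.9%). The median differences over the members were -4.39 in IL10+ and -4.30 in IL10- tumour Treg. They were the same with undetected members at their bound, which is again no check.

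Of the 20 B lineage members, the 17 not detected on every array were also called lower in each tumour population, which for 12 of them follows from the filter that they passed through the spleen arrays. Of the 12 members shared with other leukocytes, Spib, Bcl11a, Btk, Syk and Cd24a were lower, and Cd72, Lyn, Plcg2, Tnfrsf13b, Xbp1, Ly86 and Cd37 were not called in total tumour Treg. With normexp background correction, which raises dim signals by a fixed offset of 50, 16 members and 810 of 15557 features were lower in total tumour Treg. The calls of Cr2, Fcrl1, Pax5, Ebf1, Bcl11a, Blk, Bank1, Btk and Tnfrsf17 were lost there. Total tumour replicate 3 shared a slide with the 3 spleen arrays, and against that single array, a comparison with 1 tumour sample, 23 members were lower and 0 higher (6.51% and 8.19% of features). IL10+ and IL10- arrays shared no slide with the spleen arrays, so slide and tissue cannot be told apart there except through the other groups. The IL10- arrays and IL10+ replicates 2 and 3 were also scanned on another day than the spleen arrays, so scan day changed with tissue there too.

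**Figure D2:**
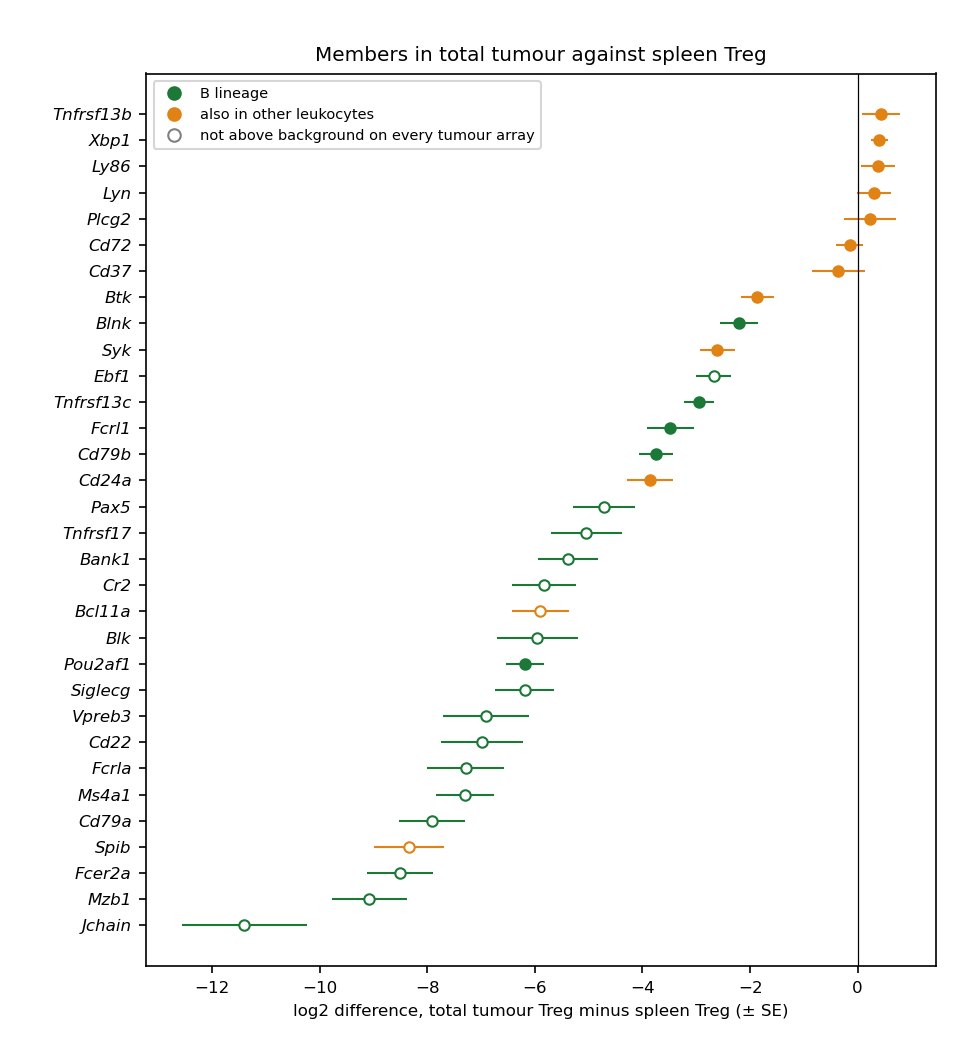
Difference of each member between total tumour and spleen Treg (log2, point and SE from limma, n = 3 arrays each), green for B lineage members and orange for members also known from other leukocytes. Open points, which lie from -2.68 (Ebf1) to -11.40 (Jchain), are members not well above background on every total tumour array. The 7 uppermost points, all orange, lie near 0.

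The signalling chains of the B cell receptor were both low in tumour Treg. Cd79b (mm8, chromosome 11, 106127556 to 106127615), detected on every array, read 0.43, 1.21 and 1.25 in IL10+, 1.22, 1.99 and 1.69 in IL10-, and 1.73, 1.30 and 1.49 in total tumour Treg, against 5.83, 5.001 and 4.93 in spleen Treg. Each of the 9 tumour arrays lay below each spleen array. The differences from spleen were -4.29 ± 0.32 (SE) in IL10+ (adjusted p = 6.29e-06), -3.62 ± 0.32 in IL10- (adjusted p = 1.94e-05) and -3.75 ± 0.32 in total tumour Treg (adjusted p = 2.06e-05, limma). Cd79a (mm8, chromosome 7, 24608094 to 24608351) read 2.06, 1.42 and 0.94 in spleen Treg and stayed below the detection call on all 9 tumour arrays. It was at least 123-fold lower in IL10+, at least 156-fold lower in IL10- and at least 231-fold lower in total tumour Treg than in spleen Treg. Each bound sets the spleen mean against the lowest signal well above background on each tumour array, or the probe's own signal where that is higher. Where the own signal is higher on every array, the bound is the measured difference. In total tumour Treg this was so for every member with a bound, such as Siglecg, except Cd79a, Pax5 and Jchain. Such a bound holds tumour signal below the detection call and is no detection limit. No p is given for members that passed the filter on spleen arrays alone.

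Coreceptors and other surface proteins followed, with Cd72 as the exception. Ms4a1 (CD20), the target of therapeutic B cell antibodies, read -5.53, -5.65 and -3.44 in IL10+, -4.37, -4.20 and -4.14 in IL10-, and -3.82, -4.91 and -4.29 in total tumour Treg, against 3.49, 2.85 and 2.55 in spleen Treg. Its groups did not overlap, although only 1 IL10- and 1 total tumour array showed it above background, so it passed the filter through the spleen arrays. It was at least 223-fold lower in IL10+ tumour Treg, and the measured differences, most of whose tumour values are below the detection call, were -7.20 in IL10- and -7.30 in total tumour Treg. Fcer2a (CD23), the low-affinity IgE receptor of follicular B cells, read 2.62, 1.92 and 1.60 in spleen Treg and was undetected on all tumour arrays. It was at least 214-fold lower in IL10+, at least 218-fold lower in IL10- and at least 363-fold lower in total tumour Treg.

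Among the inhibitory lectins, Cd22 read -4.46, -3.40 and -3.10 in IL10+, -3.64, -3.26 and -2.97 in IL10-, and -6.88, -3.48 and -6.50 in total tumour Treg, against 1.81, 1.28 and 1.02 in spleen Treg. Total tumour replicate 2, where alone of its group Cd22 was above background, stood above the other total tumour arrays, and all remained below spleen (total tumour minus spleen, -6.99 ± 0.76, adjusted p = 9.23e-05). Siglecg, which restrains receptor signalling in the same way, was at least 72.9-fold lower in total tumour Treg. Cr2, the complement receptor that lowers the threshold for antigen, was at least 56.9-fold lower. The Fc receptor-like genes Fcrla and Fcrl1, markers of mature B cells, were at least 156-fold lower and lower by a log2 difference of -3.48 ± 0.44 (adjusted p = 0.000226) in total tumour Treg. Cd72, an inhibitory coreceptor also known from macrophages, read 1.93, 2.45 and 2.74 in IL10+, 2.22, 2.62 and 2.83 in IL10-, and 2.91, 2.77 and 2.44 in total tumour Treg, against 3.11, 2.72 and 2.75 in spleen Treg. These ranges overlapped, and the difference of -0.15 ± 0.25 between total tumour and spleen Treg did not pass (adjusted p = 0.665).

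Pou2af1, Pax5, Ebf1, Spib and Bcl11a, listed as regulators of transcription, were called lower in each tumour population, and Xbp1 is described with the plasma cell genes. For Pax5, Ebf1 and Bcl11a this follows from the filter, which they passed through the spleen arrays. With normexp the total tumour calls of Pax5 (-0.76), Ebf1 (-0.45) and Bcl11a (-2.20) were lost. Pou2af1, the coactivator of octamer sites, read -3.83, -4.01 and -3.59 in IL10+, -3.19, -2.89 and -2.10 in IL10-, and -2.94, -3.16 and -2.27 in total tumour Treg, against 3.76, 3.63 and 2.80 in spleen Treg. Detected on 8 of the 9 tumour arrays, it gave differences from spleen of -7.21 ± 0.35 in IL10+ (7.98e-07), -6.12 ± 0.35 in IL10- (2.05e-06) and -6.19 ± 0.35 in total tumour Treg (2.54e-06). Pax5, which commits cells to the B lineage, was at least 26.1-fold lower in total tumour Treg, and Ebf1, which acts with it, at least 6.41-fold lower. Pax5 and Ebf1 are dim even in spleen Treg, where Pax5 read -1.34, -2.35 and -1.86 and Ebf1 -2.09, -2.67 and -2.52, so their bounds are small. Spib and Bcl11a, which B cells share with plasmacytoid dendritic cells, were at least 324-fold and at least 59.7-fold lower in total tumour Treg.

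Among the receptor signalling genes, Blk, Bank1, Blnk, Syk and Btk were called lower in each tumour population, and Lyn and Plcg2 were not. Blk and Bank1 passed the filter through the spleen arrays. Blk, a Src family kinase of B cells, was at least 61.9-fold lower and the scaffold Bank1 at least 41.8-fold lower in total tumour than in spleen Treg. Blnk, the adaptor with an octamer in its promoter, was detected everywhere and read 0.20, 0.50 and 0.84 in IL10+, -0.10, 0.22 and 0.37 in IL10-, and -0.22, 0.71 and -0.56 in total tumour Treg, against 2.69, 2.17 and 1.70 in spleen Treg. Its difference was -1.68 ± 0.35 in IL10+ (adjusted p = 0.00298), -2.02 ± 0.35 in IL10- (0.00109) and -2.21 ± 0.35 in total tumour Treg (0.000844), the smallest in size among B lineage members in each of these comparisons. With slide as a block the call in IL10- tumour Treg was lost (-3.12, adjusted p = 0.0673). Blnk is also known from some macrophages.

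The kinases Syk and Btk, shared with myeloid cells, were lower in each tumour population by differences smaller in size than those of the receptor chains. Syk read -0.65, -0.38 and -0.19 in IL10+, -0.95, -1.27 and -0.47 in IL10-, and -1.51, -0.52 and -1.64 in total tumour Treg, against 1.78, 1.25 and 1.12 in spleen Treg. Its differences from spleen were -1.79 ± 0.33 in IL10+ (adjusted p = 0.00133), -2.28 ± 0.33 in IL10- (0.000339) and -2.61 ± 0.33 in total tumour Treg (0.000206). Btk, the Tec kinase whose loss stops human B cell development, differed by -1.61 in IL10+ (adjusted p = 0.0018), -2.04 in IL10- (0.000475) and -1.87 in total tumour Treg (0.00104), each with an SE of 0.31. With slide as a block the IL10- calls of Syk (-3.18, adjusted p = 0.0659) and Btk (-2.70, 0.0645) were lost, and with normexp that of Btk in IL10+ (-0.79, 0.14) and in total tumour Treg (-1.14, 0.0894). Lyn, the first kinase of the pathway and active in myeloid cells, read 1.95, 2.72 and 2.81 in IL10+, 1.70, 2.36 and 2.32 in IL10-, and 1.95, 2.35 and 2.22 in total tumour Treg, against 2.39, 1.76 and 1.46 in spleen Treg. The groups overlapped and no difference passed, with 0.63 ± 0.31 in IL10+ (adjusted p = 0.116), 0.26 ± 0.31 in IL10- and 0.30 ± 0.31 in total tumour Treg. In IL10+ tumour Treg the other Lyn probe, also detected everywhere, was higher by 1.14 ± 0.36 (adjusted p = 0.023), and the brightest probe passed without IL10+ replicate 1 (0.90, 0.0318) or spleen replicate 1 (0.89, 0.0435). Plcg2 read 1.89, 2.48 and 2.14 in total tumour Treg, against 2.49, 1.93 and 1.42 in spleen Treg, a difference of 0.22 ± 0.48 that did not pass (adjusted p = 0.754).

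**Figure D3:**
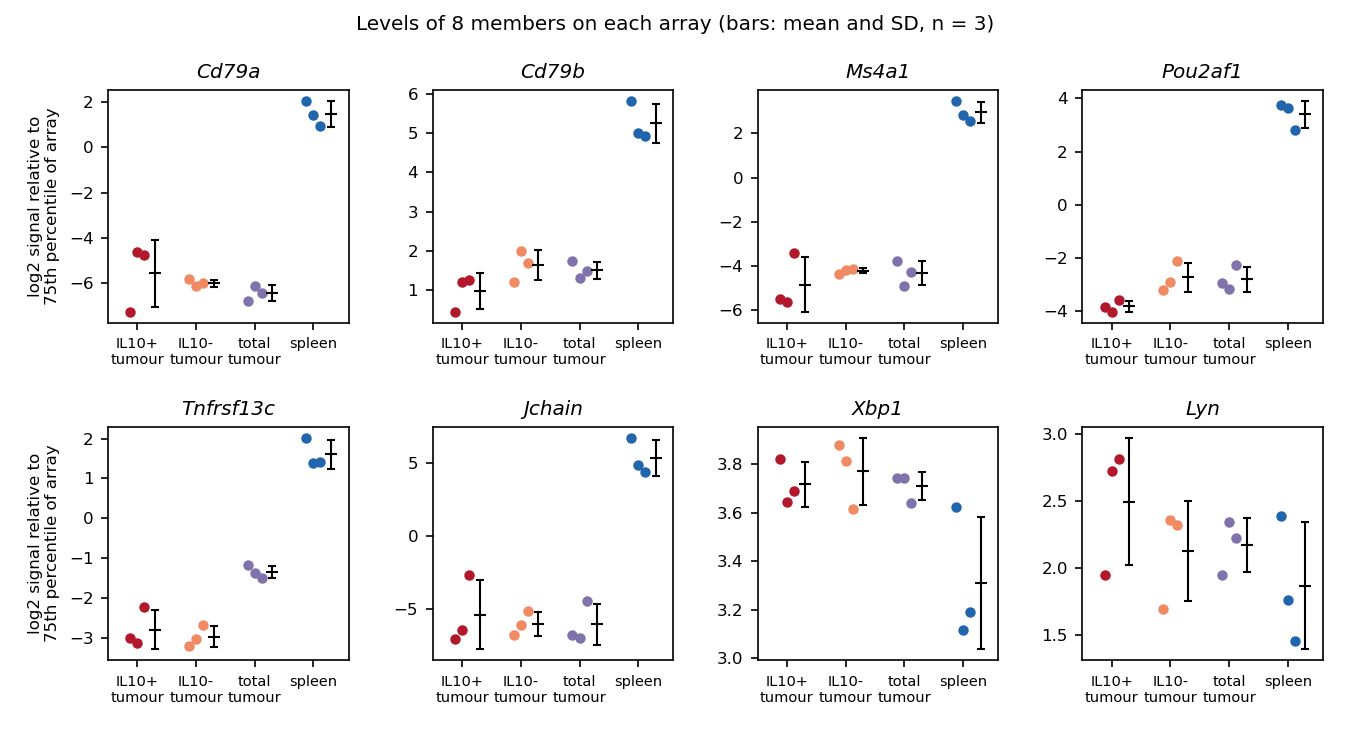
Levels of 8 members on each array (log2 relative to the array's 75th percentile, points for replicates, bars for mean and SD, n = 3). Cd79a, Cd79b, Ms4a1, Pou2af1, Tnfrsf13c and Jchain are higher on the spleen arrays than on each tumour array, Tnfrsf13c is higher in total tumour than in IL10+ and IL10- tumour Treg, and Xbp1 and Lyn overlap between some tumour groups and spleen.

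The receptors for the survival cytokines BAFF and APRIL divided into 2 called lower and 1 not called in each tumour population. Tnfrsf13c (BAFF receptor), the main survival receptor of mature B cells, was detected on all arrays and read -3.01, -3.14 and -2.22 in IL10+, -3.20, -3.01 and -2.68 in IL10-, and -1.18, -1.37 and -1.49 in total tumour Treg, against 2.02, 1.38 and 1.42 in spleen Treg. It was lower by a log2 difference of -4.39 ± 0.27 in IL10+ (adjusted p = 2.59e-06), -4.57 ± 0.27 in IL10- (2.33e-06) and -2.95 ± 0.27 in total tumour Treg (3.37e-05). Tnfrsf13b (TACI), found on activated B cells and also on some T cells and macrophages, read 1.36, 2.63 and 1.81 in IL10+, 1.98, 2.55 and 2.30 in IL10-, and 2.93, 2.19 and 2.69 in total tumour Treg, against 2.53, 1.64 and 2.34 in spleen Treg. Its groups overlapped, and the difference of 0.43 ± 0.35 between total tumour and spleen Treg did not pass (adjusted p = 0.36). Tnfrsf17 (BCMA), the receptor that keeps plasma cells alive, was undetected in tumour Treg and read 0.02, -1.88 and -2.00 in spleen Treg. It was at least 18.8-fold lower in IL10+, at least 16.6-fold lower in IL10- and at least 32.9-fold lower in total tumour Treg, and without spleen replicate 1 these bounds are 12.0-fold, 10.6-fold and 20.9-fold.

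Among the plasma cell genes were Jchain and Mzb1, both lower in tumour Treg, and Xbp1, the only member called higher than in spleen Treg, which passed in IL10- tumour Treg alone. Jchain, which joins IgA and IgM into polymers, read 6.70, 4.84 and 4.37 in spleen Treg and was undetected on all 9 tumour arrays. It was at least 1360-fold lower in IL10+, at least 2380-fold lower in IL10- and at least 2578-fold lower in total tumour Treg. Without spleen replicate 1, the brightest spleen array for this gene, these bounds are 838-fold in IL10+, 1466-fold in IL10- and 1588-fold in total tumour Treg. Mzb1, an endoplasmic reticulum chaperone cofactor for antibody secretion, read -6.17, -5.13 and -3.74 in IL10+, -4.50, -3.62 and -5.73 in IL10-, and -5.88, -5.42 and -5.87 in total tumour Treg, against 4.41, 3.07 and 2.58 in spleen Treg. It was detected on 2 IL10+ and 2 IL10- arrays, and its difference was -8.37 ± 0.70 in IL10+ and -7.97 ± 0.70 in IL10- (adjusted p = 1.32e-05 and 2.03e-05), and at least 540-fold in total tumour Treg.

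Xbp1, the transcription factor that expands the secretory pathway in plasma cells and in many other stressed or secreting cells, read 3.82, 3.64 and 3.69 in IL10+, 3.88, 3.81 and 3.61 in IL10-, and 3.74, 3.74 and 3.64 in total tumour Treg, against 3.62, 3.12 and 3.19 in spleen Treg. The IL10- and spleen ranges overlapped at their edge. Its difference of 0.46 ± 0.16 in IL10- tumour Treg passed (adjusted p = 0.0341, from 0.00984 to 0.766 over the alternatives), whereas 0.41 ± 0.16 in IL10+ (0.053) and 0.40 ± 0.16 in total tumour Treg (0.0655) did not. Without spleen replicate 1, whose level was the highest of the spleen arrays, it passed in total tumour (0.56, adjusted p = 0.0186) and in IL10+ tumour Treg (0.56, 0.0139) too. In IL10+ tumour Treg it also passed with the replicate block (0.0446), quantile normalization (0.0335), the value table (0.043) and a filter on every array of a group (0.0466). The call in IL10- tumour Treg was lost without IL10- replicate 1 (0.40, adjusted p = 0.0918) or 2 (0.44, 0.0863), total tumour replicate 1 (0.46, 0.0504), or spleen replicate 2 (0.36, 0.11) or 3 (0.40, 0.112).

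The last members are surface or precursor genes. Vpreb3, known from B cell precursors and the other gene with an octamer, was at least 120-fold lower in total tumour Treg and read 1.96, 1.19 and 0.98 in spleen Treg. Cd24a (heat-stable antigen), carried by B cells, granulocytes and red cell precursors, read -3.33, -2.34 and -1.96 in IL10+, -3.20, -2.35 and -2.15 in IL10-, and -2.67, -2.52 and -2.57 in total tumour Treg, against 1.78, 1.57 and 0.48 in spleen Treg. It was detected on all arrays, and its difference of -3.82 to -3.86 (SE 0.43) lay close together in the 3 tumour populations. Ly86 (MD-1), the partner of the Toll-like protein Cd180 on B cells and myeloid cells, read 3.53, 4.28 and 3.43 in total tumour Treg, against 3.92, 3.32 and 2.87 in spleen Treg. That difference of 0.38 ± 0.32 did not pass (adjusted p = 0.382). The tetraspanin Cd37, present on most leukocytes, read 5.18, 4.67 and 5.18 in total tumour Treg, against 5.45, 5.32 and 5.33 in spleen Treg, and its difference of -0.36 ± 0.50 did not pass (adjusted p = 0.608).

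Where a member had further probes that passed the filter, as for Bank1, Bcl11a, Cd22, Cd37, Cd72, Fcrl1, Jchain, Lyn, Ms4a1, Tnfrsf13b and Vpreb3, each gave the direction of the brightest probe in total tumour against spleen Treg. For Bank1, Bcl11a, Cd22, Jchain, Ms4a1 and Vpreb3 these probes were well above background on 3 arrays each and brightest in spleen Treg. The filter thus set their direction. Those of Cd37, Cd72, Lyn and Tnfrsf13b were detected on all 12 arrays. Probes that did not pass, as for Bank1, Cr2, Ebf1 and Pax5, were left out. The other Jchain probe differed by -10.19 and the other Ms4a1 probe by -8.64, both lower, and the other Tnfrsf13b probe by 0.90.

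Other genes of the same pathways, listed by function, moved in both directions. The share of all features in total tumour against spleen Treg, 20.2% lower and 21.9% higher, stands beside each count below. Of 22 further genes of B cell receptor signalling, 7 were lower, 3 higher and 12 not called in total tumour Treg, with a median of -0.47. The kinase Prkcb was lower by a log2 difference of -1.91 ± 0.28 (adjusted p = 0.000491). Lat2, an adaptor of B cells and myeloid cells, was higher by 1.98 ± 0.29 (0.000493), and the others called higher, named after their values were seen, were Fcgr2b and Malt1. The brightest of the list serve T cells as well and were not called, namely Cd5 (-0.05), Ptprc (-0.47) and Grb2 (0.03), although Ptprc was lower with array weights (adjusted p = 0.0345), quantile normalization (0.0479) and the value table (0.0325). Of 29 tested genes of mature B cells, 17 were lower and 1 (Ikzf3, an Ikaros family factor, named after its value was seen) higher, with a median of -1.06. Fcmr, the Fc receptor for IgM, differed by -8.77 ± 0.50, Dtx1, a Notch target of marginal zone B cells, by -5.44 ± 0.33 and Btla, an inhibitory receptor of B and T cells, by -3.15 ± 0.16 (adjusted p at most 3.24e-06). Ets1 (-0.87), Foxo1 (-1.06) and Ccr7 (-1.34), which naive T cells also use, were lower too (adjusted p at most 0.0164), although Ets1 stood at 0.26 with the mean of its probes. Their calls were lost with normexp (adjusted p = 0.0783, 0.077 and 0.156), and those of Foxo1 without total tumour replicate 2 (0.0552) and of Ccr7 without total tumour replicate 3 (0.0637). With slide as a block, Ets1 (0.0828) and Foxo1 (0.0624) were lost too, and Ccr7 was lost with only the groups compared (0.0503).

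Further secretory pathway genes moved in both directions, unlike Jchain and Mzb1. Of 21 further genes of plasma cells and their endoplasmic reticulum, 7 were higher, 3 lower and 11 not called in total tumour Treg, with a median of 0.44. Over all features 21.9% were higher and 20.2% lower, which holds beside the other counts of this paragraph too. The chaperones Hspa5 and Hsp90b1, which every secreting cell uses, were higher by 0.90 ± 0.15 (adjusted p = 0.00101) and 0.70 ± 0.14 (0.00335), and Ckap4, a membrane protein of the endoplasmic reticulum, by 3.13 ± 0.50 (0.000873). Derl3, a degradation factor typical of plasma cells, was lower by a log2 difference of -3.59 ± 0.60 (0.00113), as were Eaf2 and Edem2, named after their values were seen, while Creld2 differed by 0.42 ± 0.21 and was not called. With normexp the calls of Hspa5 (0.50, adjusted p = 0.752), Hsp90b1 (0.44, 0.748) and Derl3 (-2.14, 0.0541) were lost, and against the 1 total tumour array on the spleen slide these and that of Ckap4 (2.80, 0.11) were lost. Among precursor B cell genes, 4 of 6 tested were lower (with Vpreb2, named after its value was seen) and 1 higher. Lef1 (-2.96) and Il7r (-1.37), both also T cell genes, were lower, Dntt, the terminal transferase of lymphoid precursors, was at least 27.3-fold lower (at least 16.002-fold without spleen replicate 2), and Cd93, carried by immature B cells, myeloid cells and endothelium, was higher (2.08). Of 5 germinal centre genes tested, Bcl6 (-1.63) and Fas (-1.16) were lower, and 2 were higher, the proliferation gene Mki67 (1.54) and S1pr2, named after its value was seen. With slide as a block the calls of Il7r (adjusted p = 0.0737), Dntt (0.0511), Cd93 (0.134) and Mki67 (0.0607) were lost, with normexp those of Dntt (0.216) and Mki67 (0.28), and with the mean of a gene's probes those of Il7r (0.0549) and Fas (0.298).

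The antibody genes themselves could be followed only in part. Of 13 constant region genes, Ighm, the IgM heavy chain, alone was tested, and it read 3.65, 4.80 and 4.10 in IL10+, 4.12, 5.12 and 4.64 in IL10-, and 5.25, 4.83 and 5.24 in total tumour Treg, against 7.59, 6.31 and 7.13 in spleen Treg. Its groups did not overlap, and it differed by -2.83 ± 0.39 in IL10+ (adjusted p = 0.000258), -2.38 ± 0.39 in IL10- (0.000788) and -1.90 ± 0.39 in total tumour Treg (0.00354). With slide as a block the calls in IL10- (-3.34, adjusted p = 0.0777) and total tumour Treg (-1.77, 0.0609) were lost. Counted by the start of the gene name, a choice made after the names and values were seen, 35 immunoglobulin features were tested and 33 were lower in each spleen comparison, where 26.9% (IL10+), 24.7% (IL10-) and 20.2% (total tumour) of all features were. Of the 35, 25 were above background on fewer than 3 tumour arrays and so passed the filter through spleen Treg, which makes the count a description. In total tumour Treg 23 were undetected on every array, with bounds from at least 5.36-fold to at least 1679-fold lower, and 4 of the 5 detected on all 3 arrays were lower. The exceptions were Igkv14-111 (0.80) and Igkv2-112 (-2.45), neither of which was called. Variable segments are near copies of each other, so which segment a probe reads is uncertain.

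The spleen arrays were not alike in this signature. Spleen replicate 1 stood above replicates 2 and 3 for all 32 members, by the most for the plasma cell genes. Jchain was 2.10, Tnfrsf17 1.96 and Mzb1 1.58 above the mean of replicates 2 and 3 on the log2 scale, which for Jchain is 4.28-fold. The 17 other B lineage members were above by 0.44 to 0.98 on the log2 scale, with a median of 0.76, against a median of -0.01 over all 15557 features (5th to 95th percentile -0.67 to 1.02). The 35 immunoglobulin features were above by a median of 1.30. Xbp1 (0.47) and Cd37 (0.13) were among the members that differed least. With 3 spleen arrays this is a description of the arrays, and leaving replicate 1 out left 25 members lower in each of the 3 spleen comparisons.

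**Figure D4:**
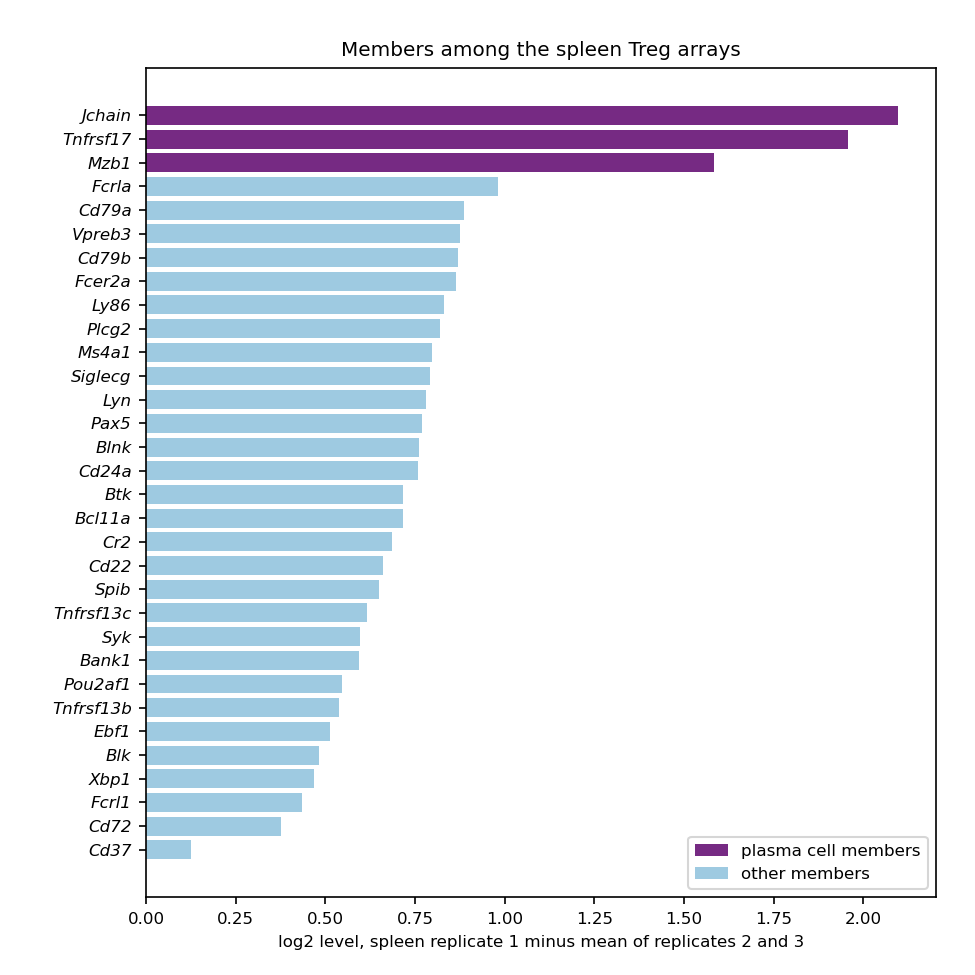
Log2 level of each of the 32 members on spleen replicate 1 minus the mean of spleen replicates 2 and 3. Each bar lies above 0, the plasma cell members Jchain (2.10), Tnfrsf17 (1.96) and Mzb1 (1.58) reach furthest, and Cd37 (0.13) is the shortest.

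IL10+ and IL10- tumour Treg did not differ in any member by the test. Of the 32 members, 0 were higher and 0 lower in IL10+ tumour Treg (limma, adjusted p at least 0.753), in a comparison where 0.00643% of features were higher and 0.0450% lower, and 2 members and 4.56% of features had an unadjusted p under 0.05. These were Fcrl1, undetected on the 3 IL10+ arrays and detected on all 3 IL10- arrays (difference -1.50 ± 0.44, adjusted p = 0.753), and Pou2af1 (-1.08 ± 0.35, adjusted p = 0.918). Both had every IL10+ array below every IL10- array, as did 5.45% of all features, and 0 members had every IL10+ array above, as did 1.86%. IL10+ replicate 2 shared a slide with the 3 IL10- arrays, but with 1 IL10+ array there and 0 of 15557 features called, that slide gives no information on single members. For Cd79b, detected on all arrays, the difference was -0.67 ± 0.32.

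Between the reporter strains, a single member differed. VERT-X tumour Treg (the mean of IL10+ and IL10-, 6 arrays) had 1 member lower and 0 higher than FoxP3-EGFP total tumour Treg (3 arrays), where 0.810% of features were lower and 0.289% higher, and 5 members and 19.9% of features had an unadjusted p under 0.05. The member was Tnfrsf13c, with a difference of -1.53 ± 0.24 (adjusted p = 0.0304, from 0.00468 to 0.865 over the alternatives), and all 6 VERT-X arrays, at -3.20 to -2.22, lay below the 3 FoxP3-EGFP arrays, at -1.49 to -1.18. Over all features, 8.72% lay wholly below and 4.27% wholly above in this way. The call was lost without IL10+ replicate 2 (adjusted p = 0.051), IL10- replicate 2 (0.0644) or 3 (0.0547), any one total tumour array (0.0961 to 0.214), or spleen replicate 1 (0.054) or 3 (0.0565), with differences of -1.60 to -1.45. The reporter strain and the Treg gate changed together in this comparison. Scan day and slide changed largely with them. The 3 total tumour arrays were scanned on the same day, and of the VERT-X arrays only IL10+ replicate 1 was scanned on that day. The parts of strain, gate, scan day and slide cannot be told apart. Cd22 (2.15 ± 0.66, adjusted p = 0.126) and Spib (2.08 ± 0.57, adjusted p = 0.0945) had larger differences in the other direction that did not pass, and the groups overlapped for both. Cd22 passed without total tumour replicate 2 (3.22, adjusted p = 0.0441) and with array weights (2.48, 0.0406).

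Markers of other cells moved between the same groups. Summed over the 20 B lineage members, in units of the array's 75th percentile, the signal was 2.97 to 5.86 in IL10+, 4.26 to 6.16 in IL10- and 4.51 to 5.16 in total tumour Treg, against 92.0 to 249.6 in spleen Treg. Over the 12 shared members it was 66.4 to 105.7, 69.8 to 113.9 and 81.4 to 84.8 in the 3 tumour groups, against 83.2 to 113.8 in spleen Treg, and the ranges overlapped. The brightest probes weigh most in such sums, for the 20 B lineage members Cd79b and, in spleen Treg, also Jchain. Of those 20, 12 passed the filter through the spleen arrays, so their sum is a description. The 14 tested macrophage and monocyte markers summed to 534.5 to 903.6 in IL10+, 471.4 to 632.6 in IL10- and 385.0 to 720.4 in total tumour Treg, against 43.6 to 106.0 in spleen Treg. Of these, 12 were higher and 0 lower in total tumour Treg, where 21.9% of all features were higher and 20.2% lower. Apoe (3.03) and Lyz2 (3.999) were among the 12. Macrophages are known to transcribe Lyn, Plcg2, Ly86, Cd72, Syk, Btk and Xbp1, and the part of these markers in the levels of the shared members was not tested.

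The other lists give the setting, in total tumour against spleen Treg, where 21.9% of all features were higher and 20.2% lower. Several of these counts are small and lie near those shares. All 9 fibroblast markers were higher in total tumour Treg, Sparc by 5.44 and Dcn by 9.49, and 2 of 3 tested epithelial markers (Cdh1 and Krt18) were higher. Of 11 dendritic cell markers, 1 (Zbtb46) was higher and 3 (Ccr9, Flt3 and Siglech) were lower. Of 5 neutrophil markers, 1 (Ltf) was higher and 0 were lower. Of 7 markers of CD8 T cells and NK cells, 0 were higher and 4 (Cd8a, Cd8b1, Eomes and Klrb1c) were lower, and of 6 erythroid and platelet markers, 0 were higher and 3 were lower, Alas2 and Hba-a1 among them. Alas2, Hba-a1 and the genes in brackets were named after their values were seen. Of the 10 T cell and Treg gate genes, 2 (Ctla4 and Tnfrsf1b) were higher and 0 lower, with Cd3d at -0.38, Cd3g at -0.08, Cd3e at -0.32 and Cd4 at -0.26, none of them called, and Tnfrsf1b at 2.28, a call lost with slide as a block (adjusted p = 0.0695). Cd3d was lower with the value table (-0.78, adjusted p = 0.02). Their summed signal was 215.2 to 460.4 in IL10+, 234.2 to 417.8 in IL10- and 331.4 to 447.9 in total tumour Treg, against 391.9 to 459.4 in spleen Treg.

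**Figure D5:**
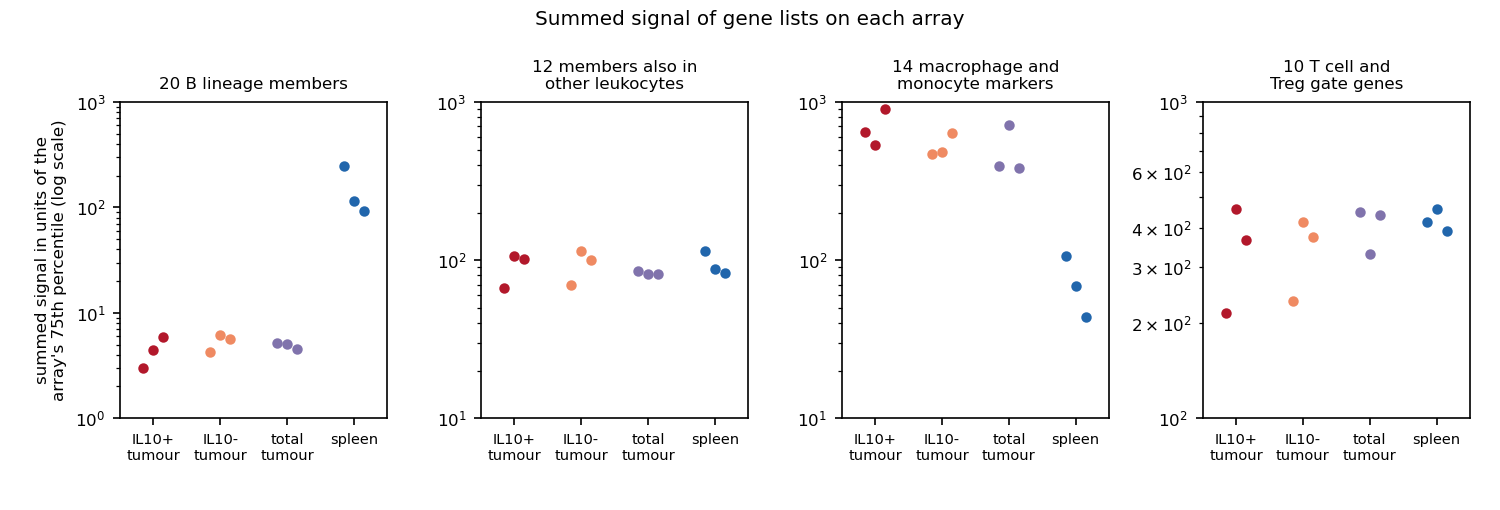
Summed signal of 4 gene lists on each array, in units of the array's 75th percentile on a log axis (points for replicates). The 20 B lineage members lie between 2.97 and 6.16 on the tumour arrays and between 92.0 and 249.6 on the spleen arrays, the macrophage and monocyte markers run the other way, and the 12 shared members and the T cell and Treg gate genes overlap between tissues. The brightest probes weigh most in each sum, and 12 of the 20 B lineage members passed the filter through the spleen arrays.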

How the data were processed

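RNA of 12 sorted Treg samples was measured on Agilent one-colour mouse arrays, 3 per group. The deposited scanner files hold spot intensity from Agilent Feature Extraction 9.5.3.1, background-subtracted within the array and with no normalization between arrays, per the file headers; probe positions are on mm8. The labels describe biotin-labelled cRNA, the headers a single-channel scan. The deposited value table is on a log10 scale (r with the intensity 0.995 to 1.00, column medians 1.33) and served as an alternative only; how it was normalized is not given in the labels or headers.

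The 1639 control spots were left out and spots of a probe averaged, which left 41174 probes. Names came from the RefSeq table of GRCm38.p6 (23374 probes by accession, 6733 by symbol, 2919 by synonym; 1244 kept the file's name, 6904 had none). Levels are log2 processed intensities after subtraction of each array's 75th percentile. Features were genes by their brightest probe, well above background on at least 3 arrays (15557 features, 13531 of them named). A fit of all 12 arrays with limma 3.58.1 (lmFit, eBayes, two-sided, R 4.3.3) shared the spread over the 4 groups, with p-values adjusted by Benjamini and Hochberg over all features of each of 5 contrasts and called under 0.05. The labels name 3 experiments per group, and the number of arrays limits the precision. A bound ("at least") is given where a probe was not well above background on any array of a group; on each array the dim side is the lowest signal well above background, or the probe's own where that is higher. The steps were tested on simulated data. Python 3.11.15 with matplotlib 3.10.9 drew the figures.

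The members, lists and motifs were chosen with earlier results of these data known, so counts over them are descriptions. Named were all members, and of each list the brightest genes and, for B lineage lists, those with the smallest p in total tumour against spleen Treg, with Foxp3, Tnfrsf1b, Cd3e and Cd4 of the gate. Alternatives were other background corrections, normalizations, filters, probes, array weights, slide and replicate blocks, the value table, only the groups compared, and leaving out each array. Some genes of these lists are counted but not reported by name here.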

Additional observations from a re-analysis of the deposited data

How the results depend on the processing

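Members lower than in spleen Treg numbered 25 in each tumour population without any of the 12 arrays in turn. With normexp background correction they numbered 16 in total tumour and 17 in IL10+ and IL10- tumour Treg. Of 15557 features, 810 were lower there in total tumour, 3220 in IL10+ and 991 in IL10- tumour Treg. With slide as a block 16 members and 556 of 15557 features were lower in IL10- tumour Treg, whose arrays meet the spleen arrays only through the other groups. The offset and the added terms are part of these settings, and no other cause was tested. Members higher than in spleen Treg in IL10+ tumour Treg numbered 1 instead of 0 with the mean of a gene's probes, quantile normalization, the replicate block, the value table and a filter on every array of a group, and 0 to 3 without single arrays (3 without spleen replicate 1, 1 without IL10+ replicate 1). In IL10- tumour Treg the 1 higher member, Xbp1, was lost (0) with array weights, no filter, normexp, only the groups compared, slide as a block and the value table, and the range without single arrays was 0 to 1. In total tumour Treg that range was 0 to 1 (1 without spleen replicate 1). In VERT-X against FoxP3-EGFP tumour Treg, 2 members were higher with array weights, where 1066 of 15557 features were higher. Between 0 and 1 members were higher without single arrays. The lower member, Tnfrsf13c, was lost (0) with no filter, normexp, only the groups compared, the replicate block and slide as a block. It was also lost without 8 of the 12 arrays in turn (0 to 1). Its cause was not tested.

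Small differences turned sign with normexp: Lyn -0.067, Plcg2 -0.048 and Grb2 -0.31 in total tumour against spleen, Xbp1 -0.83, Lyn -0.66 and Ly86 -0.55 in IL10+ against spleen, and Fcrl1 0.62 and Pou2af1 0.62 in IL10+ against IL10- tumour Treg. Slide as a block gave Lyn -0.44 and Ly86 -0.27 in IL10- against spleen, and Cd5 0.21 and Cd3g 0.059 in total tumour against spleen, the same as within the slide they share. Grb2 gave -0.12 with quantile normalization and -0.18 with the value table, Cd3g 0.00392 with array weights, and Ets1 0.26 with the mean of its probes. Without single arrays, total tumour against spleen ranged from -0.044 to 0.49 for Plcg2, -0.18 to 0.15 for Cd5, -0.040 to 0.15 for Grb2, -0.16 to 0.020 for Cd3g and -0.44 to 0.021 for Cd4, and IL10- against spleen from -0.021 to 0.51 for Ly86. Against the 1 total tumour array on the spleen slide, Apoe, Btk, Fas, Lat2, Lef1, Lyz2, Sparc and Tnfrsf17 were among the genes that kept direction and lost their call. Of 2401 differences recomputed, 2280 kept direction and call.

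The groups share replicate numbers in the labels. After removing group means, same-numbered total tumour and spleen arrays correlated at -0.02, 0.08 and 0.00, and IL10+ and IL10- arrays at 0.39, 0.42 and -0.24. For IL10+ replicates 1 and 2 the same-numbered IL10- array was the closest of the IL10- arrays, and for replicate 3 it was not. These correlations do not settle whether the numbers pair the samples. The replicate block left 25 members lower than spleen Treg in each tumour population.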
